A study of Mus musculus with 10 samples.

Results

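Wide H3K27me3 domains of mouse embryonic stem cells were examined here: 451 of the 8067 intervals ("islands") called as enriched in the H3K27me3 library of cells with BAF250a. They were chosen by width in that library alone, as autosomal islands of 10 kb or wider, so their width and their level in that library are a description and no result. Of 537 islands of that width, 20 on the sex chromosomes, 9 in 4 intervals around the Hox gene clusters and 57 in 3 other intervals (on chromosomes 4, 13 and 14) were left out. The domains made up 5.59% of the islands of that library, 23.5% of the summed island length (8.32 Mb) and 31.1% of the island reads.

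H3K27me3 is placed on histone H3 by Polycomb repressive complex 2, whose catalytic subunit is usually EZH2, together with EED and SUZ12. In embryonic stem cells the mark covers silent developmental regulator genes, starting from CpG-rich promoters and spreading over neighbouring chromatin. H3K4me3, placed by MLL/SET1 enzymes, marks promoters, and a promoter with both marks is called bivalent. BAF250a, the product of Arid1a, binds DNA and belongs to BAF, a SWI/SNF remodeller of chromatin that is known to act against Polycomb complexes at many sites.

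The cells were 129/C57BL/6 embryonic stem cells grown on fibroblast feeders with serum and LIF, and feeder DNA in the libraries was not measured. Cells labelled WT received ethanol from 4 hours after passaging for 36 hours, and cells labelled BAF250a Knockout (KO) received 1 µM 4-OH Tamoxifen on the same schedule. Drug and genotype therefore cannot be told apart, and the labels name neither the allele nor the recombinase. Whether the libraries came from separate clones or cultures is not stated there. The comparison asks how H3K27me3 and H3K4me3 differ once BAF250a is removed. Cell identity could not be set against marker genes, since chromatin alone was profiled.

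Each genotype and mark had 1 library, so differences lack a replicate check, no p-value was computed and each comparison is between those libraries. Every list gives ChIP and input reads per island, and fold over input is their ratio after scaling for library depth. In H3K27me3 islands the lists held 1140878 ChIP reads for WT and 839422 for KO, and in H3K4me3 islands 9565481 and 13512350. Input reads per kb are raw counts, not scaled for the depth of the input libraries. The depth of KO relative to WT is unknown, and outside islands the reads were not listed, so a missing island is not a measured absence. Intervals are 95%. Those of shares are exact binomial (Clopper-Pearson) and those of medians rank-based, and both treat domains as independent draws. Those of folds are normal on the log scale and cover read counting error only. Positions are 1-based in mm9. Genes inside the domains were not analysed here, since the lists are in mm9 and the gene annotation used is in GRCm38.

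Domain widths ran from 10 kb to 121.2 kb, with a median of 14.8 kb. In WT each domain held 213 to 11319 ChIP reads (median 576) and 30 to 5329 input reads (median 159). The WT fold over input ran from 1.07 to 8.41 with a median of 2.17. It was 3 or more in 105 domains and under 1.5 in 70, so the rule collected strongly and weakly enriched intervals together. The weakest included 28 domains with more than 3 times the median input density of the list, whose WT folds ran from 1.07 to 1.94. At the width limit, the 18 domains of exactly 10 kb had a median WT fold of 2.57 and 31.7 reads per kb. The 19 islands one window narrower, at 9800 bp, had a median fold of 2.10 and 28.3 reads per kb.

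Many wide domains lay close together. A further domain lay within 100 kb of 177 of them, in 72 runs of 2 to 7 domains. The longest run held 7 domains over 351 kb at chr5:14871201-15222200. Runs of 6 followed at chr1:85030801-85330600 and chr14:43936401-44109400.

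Nearly all wide domains still carried H3K27me3 in the KO library. At least 1 KO island overlapped 440 of 451 domains (97.6%, interval 95.7 to 98.8%), where the share over all 7315 autosomal islands outside the left-out intervals was 46.8%. All 140 domains of 20 kb or wider had a KO island (interval 97.4 to 100%), as did 300 of the 311 narrower ones (96.5%, 93.8 to 98.2%). Among islands of 5 to under 10 kb the share was 78.9% (76.4 to 81.3%), and among those of 2 to under 5 kb 38.6%. A longer interval has more chance to meet an island. By length, KO islands covered 78.8% of the summed domain length and 57% of that of islands of 5 to under 10 kb.

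**Figure D1:**
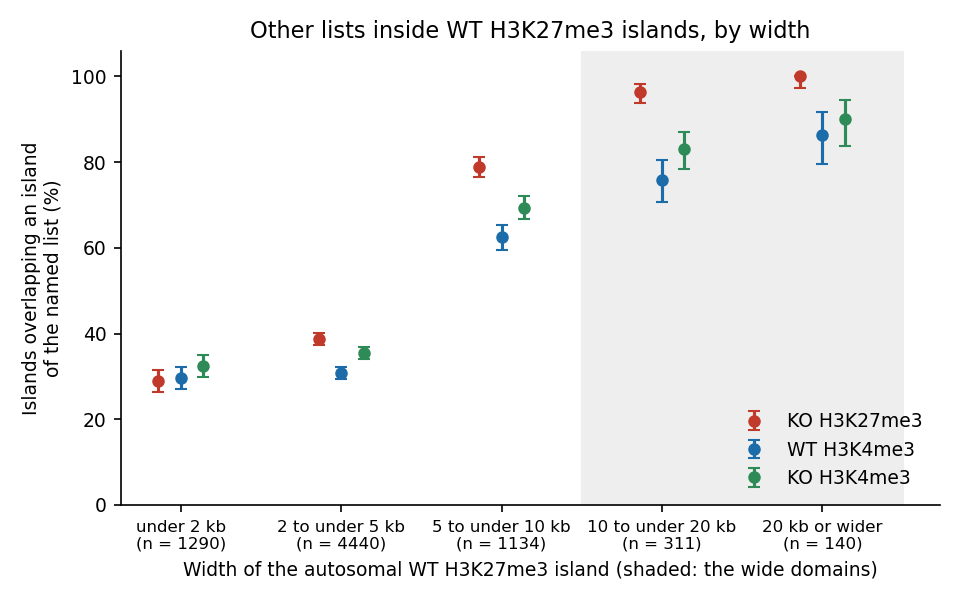
Share of autosomal WT H3K27me3 islands (y axis, %) that overlap an island of 3 other lists, in 5 classes of island width (x axis), with 95% exact binomial intervals as bars. KO H3K27me3 overlap is 28.8% under 2 kb and 100% at 20 kb or wider, and the H3K4me3 lists rise along the same order.

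Choosing by width in KO in place of WT gave similar shares. By the same rule 362 KO islands qualified, and 350 of them had a WT island (96.7%, 94.3 to 98.3%), which covered 82.9% of their length. Of these, 91 met only WT islands under 10 kb. Of the WT domains, 245 overlapped a KO island of 10 kb or wider.

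The mark was called in more pieces in KO. In 244 of 451 domains (54.1%, 49.4 to 58.8%) 2 or more KO islands took the place of 1 WT island. Over all autosomal islands the share was 6.26%, where 46.8% met any KO island. Narrow islands leave less room for 2 KO islands and a gap, so width is partly built into this contrast. A share matched for width was not computed. There were 196 domains with 1 KO island, 172 with 2, 59 with 3 and 13 with 4. A domain is by its choice whole in WT, and in the reverse direction 118 of the 362 wide KO islands (32.6%) lay over 2 or more WT islands. Most breaks were short. Of 329 gaps between KO islands inside domains, 187 were 1 kb or less, and the median was 1 kb, where the caller joins windows up to 600 bp apart. With KO islands 1 kb or less apart joined, a setting chosen after the data were seen, 129 domains (28.6%) remained in 2 or more pieces. KO islands in the domains also held fewer raw reads, with a median of 23.7 ChIP reads per kb against 37.4 in WT. These counts are not scaled for library depth. Scaled by the reads in shared autosomal H3K27me3 regions, the median log2 ratio of reads per kb was −0.13. The part of read density in the breaks was not tested.

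Cover by KO H3K27me3 was highest in the interior of a domain and lowest at its ends. It averaged 83.0% over the central 2 of 20 equal parts and 55.5% over the first and last. A median of 83.7% of a domain was covered, with 90% or more in 154 domains and under 50% in 60. Of 880 domain edges, the KO mark stopped inside the WT edge at 446, by a median of 1.8 kb. At 352 edges it reached further out than in WT, by a median of 1.6 kb, and 82 edges were identical. The domains were chosen for their width in WT, so KO edges inside and lower KO cover at the ends are partly built in. Edges of the wide KO islands were not compared in the reverse direction.

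**Figure D2:**
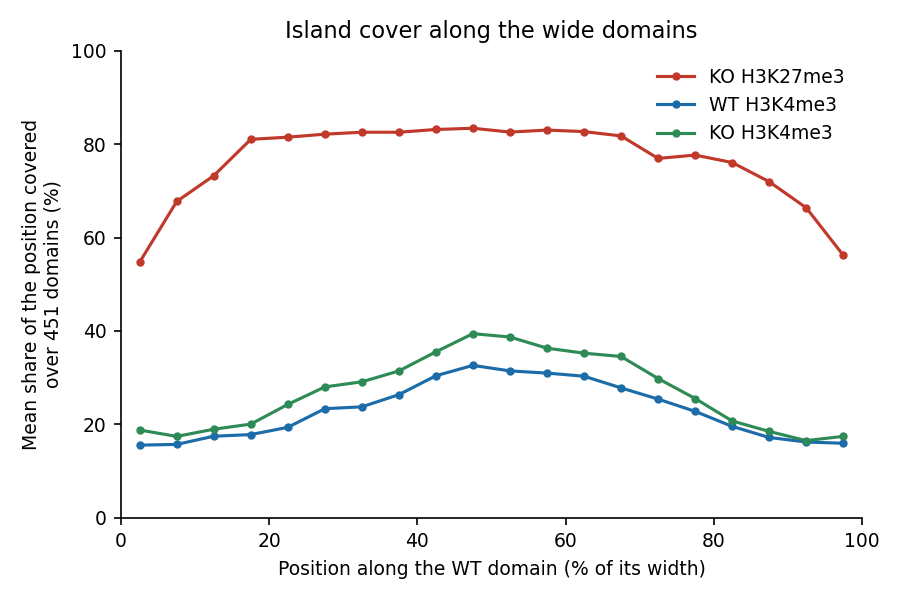
Mean share covered by islands (y axis, %) at 20 equal parts along the WT domain (x axis, % of its width), over 451 domains, for KO H3K27me3 and the WT and KO H3K4me3 lists. KO H3K27me3 lies between 54.8% and 83.4%, and both H3K4me3 lists peak near the middle of the domain.

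Enrichment over input differed little between the libraries for most domains. Over the 440 domains with both, the median fold was 2.08 in KO, and the log2 ratio of KO to WT fold had a median of −0.09 (−0.11 to −0.05), with values from −1.06 to 0.98. The KO fold was lower in 272 of 440 (61.8%, 57.1 to 66.4%), where 63.5% of all shared autosomal islands were lower, a share near that of the wide domains. A fold 1.5 times or more lower was seen in 19 domains (4.32%, against 25.9% of all shared islands) and 1.5 times or more higher in 9 (2.05%, against 8.36%). Narrower islands hold fewer reads, with a median of 181 in WT at 5 to under 10 kb, and the part of counting error in these shares was not tested. By chromosome the median log2 ratio was below 0 on 16 of 19 autosomes, from −0.29 on chromosome 10 to 0.22 on chromosome 15.

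The strong domains leaned lower in KO and the weak ones did not. Of 262 domains with a WT fold of 2 or more, 209 were lower in KO (79.8%), with a median log2 ratio of −0.20. Of 178 with a WT fold under 2, 63 were lower (35.4%), with a median of 0.09. The WT fold enters both the split and the ratio, so opposite signs are partly built into this comparison. Across the 440 domains WT and KO folds had a Spearman correlation of 0.845, over points that share 2 ChIP and 2 input libraries. Chosen by width in KO, 264 of 350 islands were lower in KO (75.4%), with a median of −0.17. Restricted to 81 domains whose KO islands filled the same window to within 10% of its width, 61 were lower (75.3%), with a median of −0.19.

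**Figure D3:**
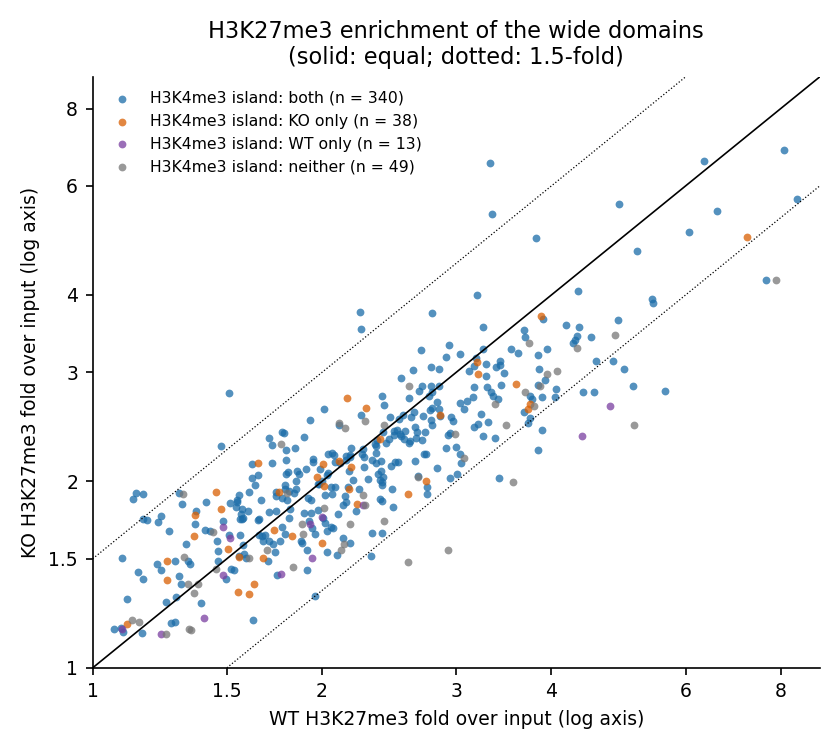
H3K27me3 fold over input in WT (x axis, log scale) and KO (y axis, log scale) for the 440 wide domains with a KO island, coloured by the genotype that has a H3K4me3 island there. Most points lie between the dotted 1.5-fold lines, and domains with a high WT fold fall more often below the solid line of equality.

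The 10 widest domains show the range of behaviour. The widest with a fold above 2 lay at chr9:91241601-91308800 (67.2 kb). It held 3688 ChIP and 572 input reads in WT (fold 3.84) and, in 3 KO islands, 1931 and 588 reads (fold 3.20). Its log2 ratio was −0.27 (−0.45 to −0.08), and 93.5% of its length stayed marked.

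At chr1:19190601-19236400 (45.8 kb), WT had 2139 ChIP and 295 input reads (fold 4.32) and KO 1363 and 386 (fold 3.44), a log2 ratio of −0.33 (−0.57 to −0.09). At chr11:96023801-96072600 (48.8 kb), which lies beside a left-out Hox interval, 2934 and 575 reads (fold 3.04) stood against 1292 and 587 (fold 2.14). There the log2 ratio was −0.51 (−0.70 to −0.31). The counting interval left out 0 in all 3 of these domains.

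In 2 others of the 10 the mark broke into 4 KO islands and the interval of the ratio included 0. At chr7:86638201-86692400 (54.2 kb) the folds were 2.35 and 2.14, with 79.0% of the length covered in KO. At chr13:56311401-56371200 (59.8 kb) they were 1.92 and 1.73, with 53.5% covered.

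The remaining 5 of the 10 were weakly enriched and rich in input. Of these, 3 lay at chr8:19678601-20038200, with WT folds of 1.13, 1.62 and 1.27 and KO folds of 1.19, 1.19 and 1.18. A single KO island joined the leftmost pair. Input reads per kb were 31.1 to 44.0 there in WT and 56.4 to 71.1 in KO. At chr5:14899801-14958200 the folds were 1.51 and 1.62, with input at 19.3 reads per kb for WT and 33.6 for KO. At chr8:126061801-126127800 (66.0 kb) the WT fold was 1.09, KO islands covered only 9.09% of the length, and H3K4me3 islands covered 3.94% in WT and 80.0% in KO. The 19 KO H3K4me3 islands there held 2336 reads at a fold of 1.53, and the 3 WT islands 132 reads at 1.45, so that the called length differed far more than the fold.

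**Figure D4:**
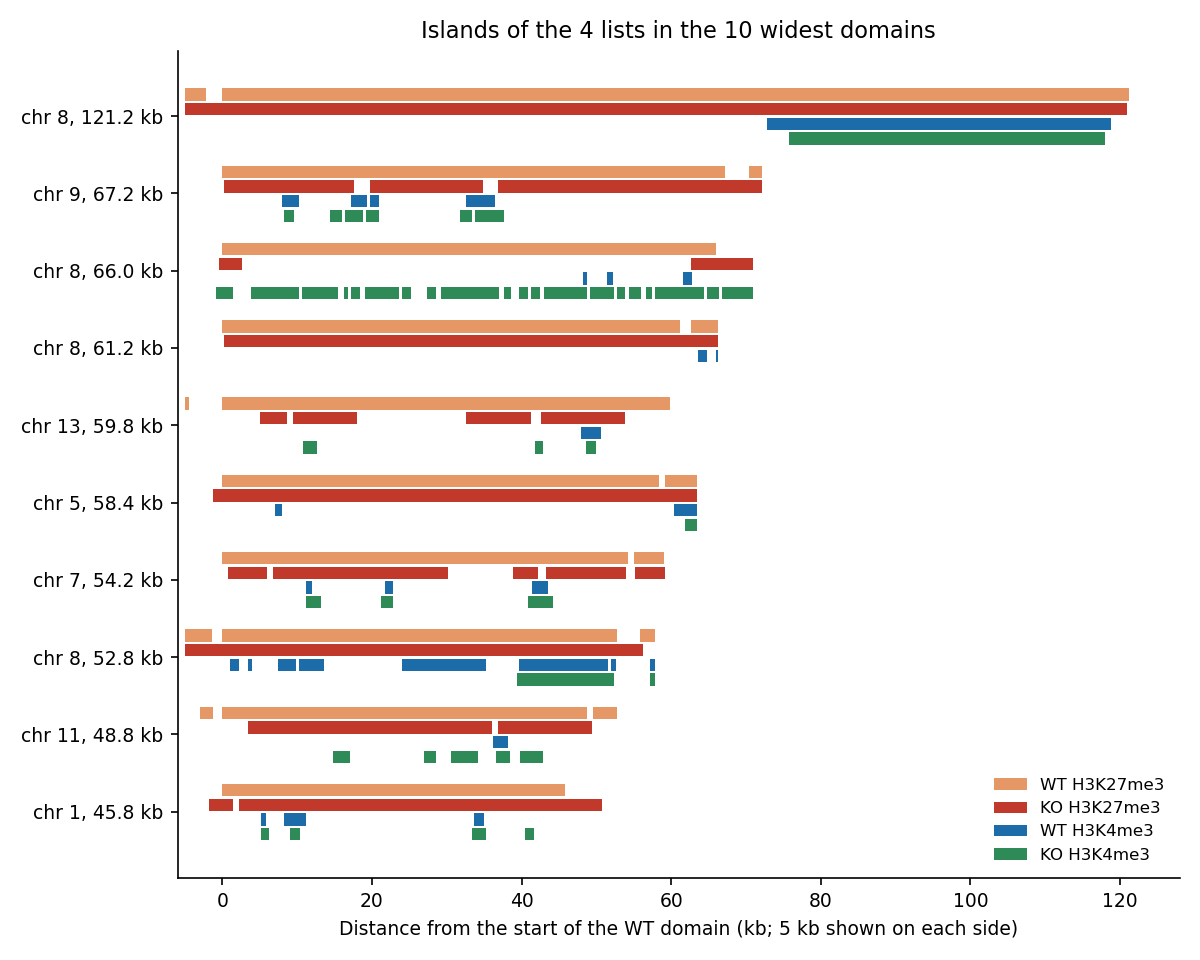
Islands of the 4 lists in the 10 widest domains, each row a domain with 4 tracks (WT and KO H3K27me3, WT and KO H3K4me3), drawn to scale against distance from the start of the WT domain (x axis, kb). The chromosome 9, 13 and 7 domains are broken into 3 or 4 KO H3K27me3 islands, whereas 3 of the 4 chromosome 8 domains are each spanned by 1.

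Input reads divide the ChIP reads in a fold, so the domains with extreme ratios were chosen partly by their input, which is given here as a description. The 5 lowest KO over WT folds, among domains that reached 100 reads in both libraries, were those at chr3:106029201-106039200, chr2:23082601-23093800, chr5:14871201-14881400, chr7:150388601-150411400 and chr3:106094801-106106200. Their log2 ratios ran from −1.06 to −0.89. Input reads per kb in the called windows were 1.92 to 2.82 times as high in KO, and the part of input in the lower folds was not tested. The strongest of them, at chr7:150388601-150411400 (22.8 kb), had 980 ChIP and 74 input reads in WT (fold 7.89) and 743 and 171 in KO (fold 4.23). It lay wholly under 1 KO island and had no H3K4me3 island in either genotype.

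In the 5 domains with the highest ratios, chosen in the same way, KO input per kb was 0.575 to 0.829 of WT. At chr18:23190001-23200600, 418 ChIP and 75 input reads in WT (fold 3.32) stood against 235 and 35 in KO (fold 6.54), a log2 ratio of 0.98 (0.35 to 1.60). The others were chr2:79288601-79301200 (folds 1.51 and 2.77), chr11:33090801-33108800 (1.14 and 1.91), chr1:167631801-167642200 (1.13 and 1.87) and chr10:126961001-126973800 (1.16 and 1.91). All 5 had H3K4me3 in both genotypes and were covered for 55.6 to 82.7% of their length by the KO mark. The first of these, at chr18, was the sole one with a WT fold above 2.

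Input density, in counts not scaled for library depth, differed between the libraries in some domains. In 62 of 440 domains (14.1%, 11 to 17.7%) input reads per kb were 1.5 times or more higher in KO, against 40.2% of all shared autosomal islands. They were 1.5 times or more lower in 3 domains, against 2.69%. A choice by input ratio shifts the fold by construction, so the folds that follow are a description. In these 62 domains the H3K27me3 fold was lower in KO in 57, with a median log2 ratio of −0.35. In the 305 domains whose input lay within 1.25 times, it was lower in 165 (54.1%) with a median of −0.03, with 0 domains 1.5 times or more lower and 3 as much higher.

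Of these 62 domains 40 (64.5%) lay in runs, as did 134 of the other 378 with a KO island (35.4%). Domains of a run can share KO islands and are not independent. In the 7 domains at chr5:14871201-15222200 input was 1.59 to 2.73 times as high in KO, with WT folds of 1.35 to 2.93 and KO folds of 1.15 to 1.71. At chr1:85030801-85330600 the ratio was 1.70 to 2.96 in the domains with a KO island, and in 4 domains at chr1:87348401-87535200 1.75 to 3.09. In 4 domains at chr3:105963401-106106200 WT folds were 3.86 to 5.13 and KO folds 2.37 to 2.85, with input 1.83 to 2.82 times as high. Strong domains without that input difference were also found in runs. The 2 at chr12:50465601-50511200 had WT folds of 4.5 and 8.09 and KO folds of 3.42 and 6.85, at input ratios of 1.21 and 0.933. That pair was chosen after its values were seen, as were the runs.

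Domains that carried no H3K27me3 island in KO were few and mostly near the width limit. There were 11, of 10 to 14.4 kb, with 213 to 423 WT reads and WT folds of 1.14 to 3.43. The one with most reads, chr18:80194001-80208400, had 423 ChIP and 94 input reads in WT (fold 2.68) and no H3K4me3 island in either genotype. H3K4me3 was absent from both lists also at chr11:111699801-111710400, at chr5:119502801-119514000 and at chr7:149926601-149937200. At chr18:47643601-47654400 it was called in WT alone, at a fold of 2.14.

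At 3 of the 11 the H3K4me3 mark was called in both genotypes, with higher folds in KO. They lay at chr14:58360601-58371800 (851 and 875 reads, folds 5.98 and 8.13), chr4:53786801-53796800 (2.33 and 3.84) and chr15:102973401-102983800 (2.23 and 3.09). At the other 3 it was called in KO alone. At chr14:27809201-27819600 the KO island held 151 reads at a fold of 5.61, and at chr5:135560601-135572000 2 islands held 191 reads at 2.58. At chr1:85030801-85043800 1 island of 2000 bp held 136 reads at 2.20, with only 400 bp of it inside the domain.

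Most wide domains also held H3K4me3. A WT H3K4me3 island overlapped 357 of 451 domains (79.2%, 75.1 to 82.8%), against 38.4% of all autosomal H3K27me3 islands. A KO island overlapped 384 (85.1%, 81.5 to 88.3%), against 43.3%. By length, WT H3K4me3 covered 22.9% of the domains, 21.9% of islands of 5 to under 10 kb, 15.6% of those of 2 to under 5 kb and 20.9% of those under 2 kb. KO H3K4me3 covered 26.9% of the domains and, in the same order, 26.3%, 18.1% and 24.2% of the narrower classes.

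H3K4me3 sat towards the middle of the domains. It covered 32% of the central 2 of 20 parts in WT and 15.8% of the outermost parts, and 39.1% and 18.1% in KO. H3K4me3 islands that met a domain were wider and less enriched than the autosomal list as a whole. The 583 WT islands had a median width of 2800 bp and fold of 1.90, against 2400 bp and 2.96 for all 26836. For the 722 KO islands these were 2600 bp and 2.52, against 2000 bp and 3.52 for all 39189. Of the islands in domains, 28 in WT (4.80%) and 26 in KO (3.60%) were 10 kb or wider, against 4.49% and 6.80% of all autosomal H3K4me3 islands.

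H3K4me3 was called in both genotypes in 343 domains (76.1%), against 36.9% of all autosomal islands. There its fold over input was higher in KO, but its reads per kb were not once scaled to shared regions. The fold was higher in KO in 312 of the 343, with medians of 1.98 for WT and 2.96 for KO. The median log2 ratio was 0.57, and −0.35 for reads per kb scaled to the reads of all shared H3K4me3 regions, so the direction turns with the scaling. A fold 1.5 times or more higher in KO was seen in 167 domains (48.7%, 43.3 to 54.1%), against 55.3% of all autosomal H3K27me3 islands with the mark in both. It was 1.5 times or more lower in 3 (0.875%, against 1.15%). In islands of 5 to under 10 kb the median log2 fold ratio was 0.66, somewhat above the 0.57 (0.52 to 0.62) of the wide domains. H3K4me3 took up more of the domain in KO in 200 of the 343, less in 120 and as much in 23. No share over all islands was computed for these counts or for the 312 with a higher fold. Over all chromosomes the KO H3K4me3 list was also longer, at 147.5 Mb against 101.4 Mb in WT.

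More domains had H3K4me3 called in KO alone than in WT alone. It was called in KO alone in 41 domains (9.09%, 6.60 to 12.1%), against 6.37% of all autosomal islands. In WT alone it was called in 14 (3.10%, 1.71 to 5.15%), against 1.54%. The KO H3K4me3 list was also longer, with 40978 islands against 28365 in WT. Cut to the length of the WT list, it met 82.0% of domains, against 79.2% for WT. The part of list length in the count of domains with the mark in KO alone was not tested. The KO islands of the 41 domains had folds of 1.38 to 5.61 with a median of 1.87, below the median of 2.96 where both had the mark. The 3 with most KO reads, chosen after their values were seen, lay at chr1:74833201-74853200 (5 islands, 371 reads, fold 2.01), chr5:148111801-148129800 (3 islands, 365 reads, 2.14) and chr5:147991601-148009400 (1 island, 285 reads, 1.86). The chromosome 5 pair belongs to a run of 4 domains at chr5:147991601-148129800 that held 0 H3K4me3 islands in WT and 6 in KO. H3K27me3 was kept in all 3, with WT folds of 1.83 to 2.11 and KO folds of 1.59 to 2.16.

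The 14 domains with H3K4me3 in WT alone differed from these in input. Input reads per kb were 1.5 times or more higher in KO in 12 of the 13 that had a KO H3K27me3 island, with a median ratio of 1.87. Several of the 14 shared a run, 4 at chr5:14871201-15222200 and 2 at chr3:105963401-106106200, and are not independent. The 3 with most WT H3K4me3 reads, also chosen after their values were seen, were chr5:15145601-15162000 (243 reads, fold 1.26), chr5:15017801-15045400 (132 reads, 2.12) and chr8:71994401-72009200 (118 reads, 2.01). Input also enters the calling of H3K4me3 islands, and its part in these calls was not tested.

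Domains without H3K4me3 in either genotype numbered 53 (11.8%, 8.93 to 15.1%), against 55.2% of all autosomal islands. Their median WT fold was 2.17, near the 2.25 of domains with H3K4me3 in both. They were less wide (median 12.6 against 15.2 kb) and held fewer H3K27me3 reads per kb in WT (28.4 against 38.3). In 28 of the 49 with a KO H3K27me3 island, input per kb was 1.5 times or more higher in KO, compared with 20 of 340 domains with H3K4me3 in both. The median input ratio was 1.56 against 1.02, and, over the same window alone, 1.61 in 10 domains against 1.03 in 62. The median log2 H3K27me3 fold ratio was −0.23 in the 49 and −0.07 in the 340. Some of the 53 domains shared a run, such as 3 at chr7:46501601-46546600, and are not independent.

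**Figure D5:**
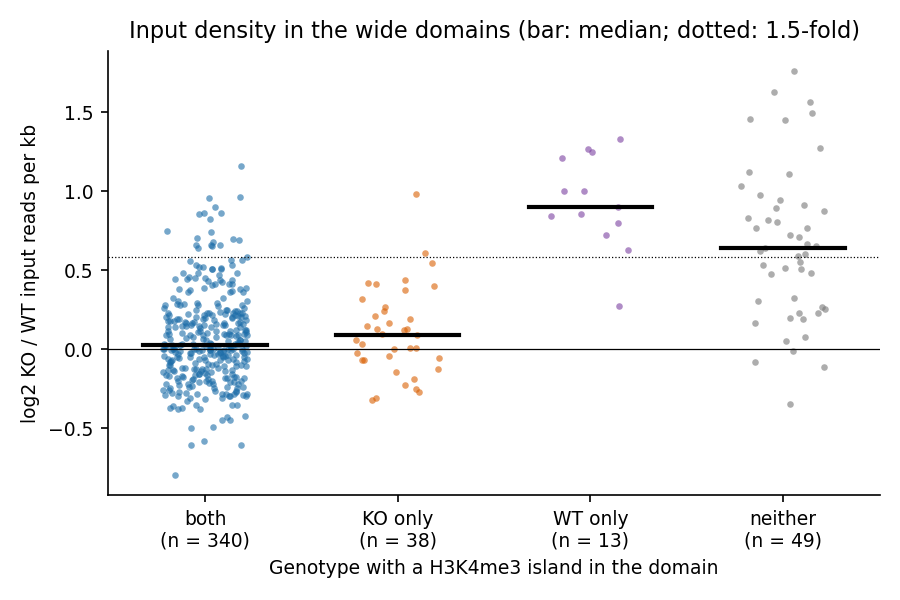
Log2 ratio of KO to WT input reads per kb (y axis, not scaled for depth) in the called H3K27me3 windows of 440 wide domains. Domains are grouped by the genotype with a H3K4me3 island (x axis), with 1 point per domain and a bar at each median. Medians lie near 0 where H3K4me3 is in both or in KO alone, and above the dotted 1.5-fold line where it is in WT alone or in neither.

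H3K4me3 filled whole domains in a few places. In WT its cover was greatest at chr13:23492601-23504800, chr14:49279401-49293600 and chr6:47601601-47637200 (all 100%), chr6:47687001-47723200 (98.9%) and chr10:21869201-21883200 (92.9%). The chromosome 6 pair had 57.9 and 59.7 input reads per kb in WT and H3K27me3 folds of 1.07 to 1.16 in both genotypes. The chromosome 10 domain lay above the medians of the wide domains for both marks, with H3K27me3 folds of 2.64 and 2.59 and H3K4me3 folds of 2.78 and 3.38. Its H3K4me3 folds lay below the medians of all autosomal H3K4me3 islands (2.96 and 3.52). H3K4me3 reads were 1118 over 15200 bp of islands in WT and 2220 over 23400 bp in KO. The chromosome 13 domain held 2809 and 2618 H3K4me3 reads at folds of 5.89 and 6.04. In KO chr4:88941401-88957200 joined these, with H3K4me3 cover of 57% in WT and 88.6% in KO (folds 3.54 and 6.34). There the H3K27me3 folds were 4.06 and 2.82, a log2 ratio of −0.53 (−0.97 to −0.09).

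Inside domains, length without a KO H3K27me3 call held somewhat more H3K4me3. In the 440 domains with a KO island, 6.55 Mb lay under KO H3K27me3 and 1.64 Mb did not. KO H3K4me3 covered 25% of the first and 35.2% of the second. Cover by WT H3K4me3 was 22.2% and 26.6%, so part of this difference was already there in WT. Length with H3K4me3 in KO but not in WT made up 7.68% and 10.2%. Of the 329 gaps between KO islands, 208 held KO H3K4me3, 175 held WT H3K4me3 and 115 held neither. The gaps ran from 0.8 to 60 kb and any overlap counted. No share was computed for like stretches elsewhere in the domains, so these counts do not place H3K4me3 at the breaks.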

How the data were processed

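Chromatin was profiled by ChIP with antibodies to H3K4me3 and H3K27me3 after 1% formaldehyde for 10 minutes, micrococcal nuclease and sonication, with 50 bp reads. The title of 1 KO library reads H2K27me3; its antibody label gives H3K27me3. Bowtie, SICER 1.1 and mm9 are named per the submitters' processing notes; the sources used here do not give read filters or duplicate handling. The deposited lists carry whole-number counts of ChIP and input reads per island, a p-value and FDR, and a fold (ratio), which the authors' tables give as ChIP over input reads times 1 constant per list. Their names set windows at 200 bp, joined across up to 600 bp for H3K27me3 or 200 bp for H3K4me3, at an FDR of 0.05.

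Domains and lists were chosen with earlier results of these data known. Islands overlapped when they shared 1 bp. KO reads of a domain are those of all KO islands it meets, whole islands included, so windows differ. Fold ratios needed 20 reads in each library. Shares past 1.5-fold are set beside those of all 7315 autosomal islands. Regions named were the 10 widest, the 5 highest and lowest fold ratios with 100 reads in each library, up to 10 domains without a KO island (an eleventh was added) and the 5 with most H3K4me3 cover per genotype; those at the width limit tied and are given as groups. Gene lists and promoter sequences were not used here, since these tables are of another build. Overlaps were checked against bedtools 2.31.1 (0 differences). Ratios were tested on simulated reads with KO islands placed exactly on the WT domains, so differing windows were not covered by that test. Python 3.11.15, numpy 2.4.6, pandas 2.3.3, scipy 1.17.1 and matplotlib 3.10.9 were used.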

Additional observations from a re-analysis of the deposited data

How the results depend on the processing

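Of 65 alternatives, 34 left a value within its 95% interval, 30 moved it and 1 reversed its sign; the cause was not tested, apart from settings that leave fewer islands. Reads per kb scaled to shared regions gave the reversed value, a median H3K4me3 log2 ratio of −0.35. For H3K27me3 the median log2 ratio was −0.13 with that scaling, −0.23 scaled by all island reads, −0.20 at a WT fold of 2 or more and, added after the data were seen, −0.19 over the same window and −0.032 with input within 1.25 times. Domains in 2 or more KO islands were 28.6% with islands 1 kb or less apart joined and 63.0% with input within 1.25 times, both added later. With an FDR of 1e-05, 94.4% of domains had a KO H3K27me3 island, 67.1% a WT and 80.4% a KO H3K4me3 island, with median H3K4me3 cover of 14.8% and 22%. With a fold of 2 in every list these were 83.9%, 54.7%, 80.9%, 7.05% and 18.3%, KO H3K27me3 cover was 75% and 93.9% of wide KO islands had a WT island. An overlap of 50% gave 74.5% with WT and 79.6% with KO H3K4me3. At 15 kb or wider, 100% had a KO H3K27me3 island (cover 87.0%), 88.7% KO H3K4me3, and wide KO islands had a WT island in 99.3% (cover 93.9%). At 8 kb or wider these H3K27me3 shares were 94.1% (79.1%) and 93.3% (87.2%). No paired analysis was possible because each genotype and mark had 1 library. Few reads widen the counting interval of a fold, and a mark outside islands is not measured.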
